A study of Homo sapiens with 8 samples.

Results

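Open chromatin after silencing of hMENA was compared with open chromatin without it in the human line H1650, which derives from a non-small cell lung cancer. All 8 libraries of the series entered the comparison, 4 on each side. The knockdown arm pooled 2 libraries of cells that received siRNAs matching exon 11a of the ENAH transcript (siMena11a) and 2 of cells that received an siRNA pool against hMENA as a whole (siMena). The control arm pooled 2 libraries of untreated cells and 2 of cells that received a non-targeting siRNA pool (siControl). All transfected cells received siRNA at 20 nmol/L with a lipid reagent, so every knockdown library was transfected and 2 of the 4 control libraries were not. The arms were set by these labels and by no measured value. Each group holds replicates 1 and 2. The labels do not say whether these are separate cultures, so each p-value measures only the spread between the libraries. The labels name total RNA as the molecule, but the files are ATAC-seq peak lists. They hold no check of the knockdown: siRNA acts on mRNA, and genes and cell type markers were not analysed here because no annotation of the hg19 build was at hand.

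hMENA is an actin regulatory protein of the Ena/VASP family. It promotes the growth of actin filaments at the leading edge and at adhesions, and its splice isoform hMENA11a is found in epithelial cells and is lost when such cells become mesenchymal. Actin dynamics reach the nucleus through transcription factors that sense actin or cell tension, and the study asks how hMENA isoforms bear on type I interferon signalling in tumour cells. ATAC-seq reads out accessible DNA as sites where a transposase inserts adapters, which are mostly promoters and enhancers. A peak is a stretch where such insertions exceed the local background. In bulk chromatin, a site open in fewer cells and a site less open in each cell cannot be told apart.

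The 8 deposited peak lists held from 1020 peaks (siMena replicate 2) to 35472 peaks (siMena11a replicate 1). Depth is known only through the background, in tags covering an average genome position, which ran from 0.538 (untreated replicate 1) to 2.88 (siMena replicate 2). Both knockdown libraries of replicate 2 had a high background (2.54 and 2.88) and few peaks (2832 and 1020), and siControl replicate 2 followed with 2.27 and 5231. At the genome-wide background, a peak entered a list with 5 to 7 tags at its summit in replicate 1 libraries and in untreated replicate 2, and with 11 to 13 tags in the other replicate 2 libraries. Merging of all peaks that overlapped or touched gave 46665 regions of 394 bp median width, over 21.9 Mb.

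**Figure D1:**
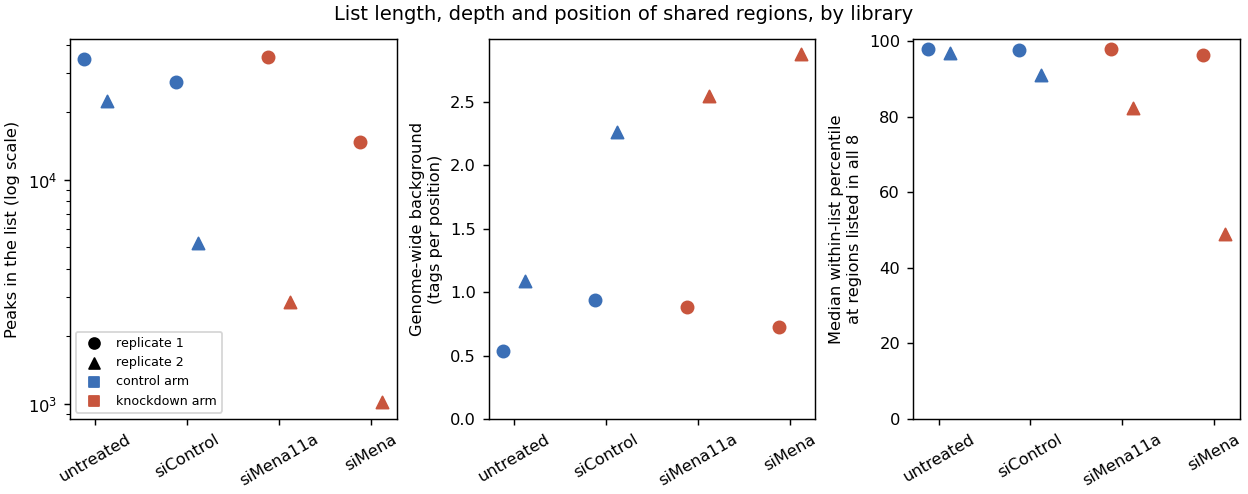
Left, number of peaks per list on a log scale; middle, genome-wide background in tags per position; right, median within-list percentile of the −log10 q at the 542 regions held by all 8 lists. Each point is 1 library, blue for controls and red for knockdowns, circles for replicate 1 and triangles for replicate 2. The replicate 2 libraries of siMena11a and siMena have the shortest lists, 2832 and 1020 peaks, and the highest backgrounds, 2.54 and 2.88.

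Most regions were listed more often without the knockdown than with it. Of the 46665 regions, 31697 (67.9%) were in more control than knockdown lists, 6267 (13.4%) in more knockdown than control lists, and 8701 (18.6%) in as many of each. All 4 control lists held 4356 regions and all 4 knockdown lists held 597. Of those 597 regions, 542 (90.8%) were in every control list as well, whereas these 542 made up 12.4% of the 4356. In lists of equal length the lean to the controls was smaller and depended on the measure. With every list shortened to its 1020 peaks of highest −log10 q, 1162 of 2977 regions (39.0%) were in more control lists and 1213 (40.7%) in more knockdown lists. A lead of 3 or 4 lists was still more frequent for the controls (45 regions against 21), as was listing by a whole arm (349 regions in all 4 control lists against 236 in all 4 knockdown lists). Within replicate 1, with lists of more similar length, 39.5% of regions were in more control lists and 16.1% in more knockdown lists. Within replicate 2 these shares were 93.6% and 1.66%. With siControl as the only control the arms differ in number of lists, so shares of lists were compared. Then 44.4% of regions were in a larger share of the control lists and 31.2% in a larger share of the knockdown lists. A region in 1 list of each arm counts there as leaning to the controls.

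**Figure D2:**
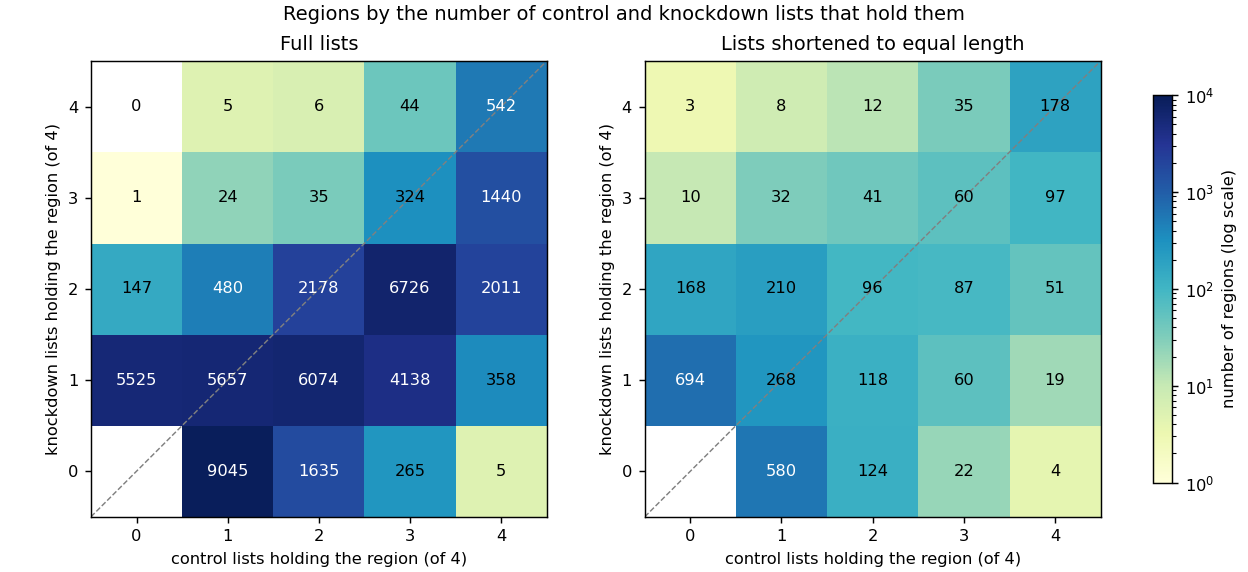
Number of regions by how many of the 4 control lists (horizontal) and of the 4 knockdown lists (vertical) hold them, for full lists (left) and for lists of equal length (right). Colour follows the number on a log scale and the dashed line marks equal listing. On the left most regions lie below the line (31697 against 6267 above it), while on the right 1162 lie below it and 1213 above.

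A complete split between the arms was rare. No region was in all 4 knockdown lists and no control list (0 percent of regions tested), and 5 regions (0.0107 percent) were in all 4 control lists and no knockdown list. For a split of this kind the two-sided exact permutation test over the 70 divisions of 8 libraries gives p = 0.0286, the smallest p that 4 libraries against 4 allow. The adjusted p over all regions was 1, and within replicate numbers, over 36 divisions, the smallest p was 0.0556. The count of 5 rested on single libraries. It was 250 without siControl replicate 2, 360 without siMena11a replicate 1 and 19 without siControl replicate 1. Without untreated replicate 1 it was 8, and without siMena replicate 1 it was 9. The count of 0 became 5 without siControl replicate 2 and 1 without siMena replicate 1.

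The 5 control-only regions were narrow, and each was weak in at least 1 list. Their median width was 412 bp, against 939 bp for the regions in all 8 lists, although a merged interval grows with the number of lists that hold it. The one with the highest lowest percentile lay on chromosome 9 from 2655336 to 2655983. Its fold over local background was 5.98 and 10.6 in the untreated libraries and 8.56 and 5.69 in the siControl libraries (replicates 1 and 2), from 10, 32, 18 and 18 tags at the summit. The nearest knockdown peak, in siMena11a replicate 1, lay 33.3 kb away. A region on chromosome 4 from 157242332 to 157242736 had folds of 9.66 and 5.86 in untreated and 6.00 and 4.90 in siControl libraries, from 11 to 18 tags. A second region on chromosome 4, from 145277533 to 145277838, had folds of 5.49 and 5.05 in untreated and 9.82 and 4.90 in siControl libraries. On chromosome 11, the region from 115812241 to 115812706 had folds of 5.29 and 8.71 in untreated and 5.37 and 4.76 in siControl libraries, and siMena11a replicate 1 held its nearest peak 71.4 kb away. The last, on chromosome 6 from 139044017 to 139044428, had folds of 6.67 and 5.74 in untreated and 6.70 and 3.98 in siControl libraries. In siControl replicate 2, whose weakest peak at the genome-wide background had a fold of 3.67, this last region had a percentile of 5.70 within the list. All 5 regions thus lay in the lower part of at least 1 control list, with a lowest percentile between 5.70 and 26.7.

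Regions held by all 4 control lists and 1 knockdown list numbered 358, and in 354 of them the knockdown list was siMena11a replicate 1, the longest. The remaining 4 were in siMena replicate 1, and the replicate 2 knockdown libraries held none. Their median width was 553 bp. The one with the highest lowest percentile spanned 116990358 to 116990975 of chromosome 8, with folds of 10.3 and 9.82 in untreated, 9.93 and 7.30 in siControl libraries and 10.4 in siMena11a replicate 1. A region on chromosome 1 from 107619398 to 107619850 had folds of 12, 8.98, 11.4 and 10.4 in the 4 control libraries and 12.6 in siMena11a replicate 1, from 22 to 33 tags. The nearest peak in siMena replicate 1 lay 19.5 kb from it. Another, on chromosome 7 from 34299867 to 34300266, had folds of 13.7, 12.9, 8.76 and 6.18 in the controls and 9.81 in siMena11a replicate 1. The other 2 named by the same rule lay on chromosome 1 (186156828 to 186157826) and chromosome 4 (41992127 to 41992904). In all 5 the fold in siMena11a replicate 1 lay within or just above the range of the controls.

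A further 1440 regions were in all control lists and 3 knockdown lists, and 2011 in all control lists and 2 knockdown lists. The knockdown list that lacked the region was siMena replicate 2 for 1397 of the 1440, siMena11a replicate 2 for 38, siMena replicate 1 for 5 and siMena11a replicate 1 for 0. Of the 2011 regions, 2010 were in siMena11a replicate 1 and 1950 in siMena replicate 1, but only 58 in siMena11a replicate 2 and 4 in siMena replicate 2. Median width was 865 bp with 3 knockdown lists, 758 bp with 2 and 553 bp with 1. The median fold in untreated replicate 1 was 11.0, 9.77 and 7.74 in the same order. In siControl replicate 2 it was 5.43, 4.73 and 4.59, and it fell likewise in the other control libraries. The median fold also fell in siMena11a replicate 1 (10.3, 9.28 and 7.68) and in siMena replicate 1 (7.93, 6.73 and 5.59). With 3 and 2 knockdown lists it was 4.67 and 4.44 in siMena11a replicate 2, but 3.70 and 4.47 in siMena replicate 2. Regions that more knockdown lists held were thus stronger in control cells and in both replicate 1 knockdown libraries. They were also wider, although a merged interval grows with the number of lists that hold it.

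Of the 265 regions in 3 control lists and no knockdown list, 245 lacked a peak in siControl replicate 2. Of the 5 with the highest lowest percentile, 1 was on chromosome 12 (67027453 to 67027974) and 1 on chromosome 1 (214502192 to 214502516). Chromosome 4 held 2 (156708290 to 156708603 and 153141331 to 153141756), and 1 was on chromosome 14 (67654552 to 67654885). Their folds ran from 6.55 to 10.5 in untreated replicate 1, from 5.96 to 7.76 in untreated replicate 2 and from 6.85 to 8.39 in siControl replicate 1. The distance to the nearest peak of siMena11a replicate 1 was 8.64 kb for the region from 156708290 on chromosome 4 and 28.1 to 83.6 kb for the other 4 regions.

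In the opposite direction, 5 regions were in all 4 knockdown lists and 1 control list, and in each the control list was siControl replicate 2. The exact permutation p for such a split is 0.143. At 210827175 to 210827777 of chromosome 1, siControl replicate 2 showed 8.58-fold enrichment, siMena11a replicates 1 and 2 showed 3.57 and 10.7, and siMena replicates 1 and 2 showed 6.60 and 7.63. Its summit held 40, 59 and 37 tags in the replicate 2 libraries of siControl, siMena11a and siMena, against 7 and 13 in the replicate 1 knockdown libraries. On chromosome 11, the region from 1212739 to 1213237 had folds of 8.33 in siControl replicate 2, 7.89 and 9.47 in siMena11a and 5.00 and 7.57 in siMena libraries. On chromosome 8, the region from 145288179 to 145288523 had 7.37 in siControl replicate 2, 4.80 and 6.96 in siMena11a and 5.00 and 5.74 in siMena libraries. In these 3 regions siControl replicate 2, a control library, had a higher fold than at least 3 of the 4 knockdown libraries. The remaining regions, on chromosome 18 (76774316 to 76774920) and the unplaced contig Un_gl000225 (119057 to 119450), had folds from 2.90 to 4.53 in the 5 libraries. All 5 had percentiles of at least 65.6 in the replicate 2 lists and of at most 53.4 in the replicate 1 lists. Only 1 region was in 3 knockdown lists and no control list. It spanned 975416 to 975686 of chromosome 11 and was enriched 5.32-fold and 5.10-fold in siMena11a replicates 1 and 2 and 3.70-fold in siMena replicate 2.

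Among the 147 regions in 2 knockdown lists and no control list, 114 were shared by the siMena11a and siMena libraries of replicate 1 and 28 by those of replicate 2. Only 1 joined both siMena11a libraries and 0 both siMena libraries. The 1635 regions in 2 control lists alone were likewise shared by untreated and siControl replicate 1 in 1020 cases, while 442 joined both untreated libraries and 8 both siControl libraries. In both classes the most frequent pair thus joined the replicate 1 libraries of different treatments. These are also the 2 longest lists of each arm, and the part of list length in the sharing was not tested.

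Position on the chromosome differed between the 2 directions. As no chromosome lengths of the build were used, distance was taken to the outermost region on either side of the same chromosome, over chromosomes 1 to 22 and X. Of all regions, 18.7% (8662 of 46401) lay within 10 Mb of it. The share was 70% (7 of 10) for regions in all knockdown and at most 2 control lists, 66.7% (14 of 21) for those in 3 knockdown and at most 1 control list, and 50% (17 of 34) for those in all knockdown and 3 control lists. It was 27.3% (39 of 143) for regions in 2 knockdown lists alone and 21.2% (1161 of 5485) for those in 1 knockdown list alone, the most numerous knockdown-only class, against 16.8% (1516 of 9005) for those in 1 control list alone. It was 8.96% (32 of 357) for regions in all control lists and 1 knockdown list and 10.4% (149 of 1437) for those in all control and 3 knockdown lists. The high share was seen within replicate 2. Within replicate 2 it was 79.3% (23 of 29) for regions in both knockdown lists and no control list and 12.2% for the reverse. Within replicate 1 these were 19.0% (26 of 137) and 15.4%. Among the 1020 strongest peaks of each list, the share near the ends was 30.8% in siMena replicate 2 and 21.7% in siMena11a replicate 2, against 12.7% to 16.9% in the other 6 libraries. Those of siMena replicate 2 are its whole list. Over the full lists the share was 17.6% in siMena11a replicate 2 and 15.1% to 19.0% in the other 6 libraries. This measure was chosen after its values were seen and carries no test, and the part of depth and list length in it was not tested.

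Chromosomes also differed in how many of their regions leaned to the controls. Regions with a lead of 3 or 4 control lists made up 1.35% of all regions (628). They were 3.09% of the regions of chromosome 4 (69 of 2235) and 1.95% on chromosome 2, but 0.0631% on chromosome 19 (1 of 1585), 0.551% on chromosome 17 and 0.616% on chromosome 16. Regions with a lead of 2 or more knockdown lists made up 0.392% of all regions (183), with 0.784% on chromosome 16, 0.612% on chromosome 17 and 0.268% on chromosome 4. At the same lead of 2 or more lists, control-leaning regions were the more frequent on each of chromosomes 1 to 22 and X, from 10.3% on chromosome 19 to 24.1% on chromosome 4. Chromosome 19 held 3.59% and 2.85% of the peaks of untreated replicates 1 and 2, 3.53% of those of siControl replicate 1 and 0.975% of those of siControl replicate 2. In siMena11a and siMena it held 3.91% and 4.07% of the peaks in replicate 1 and 1.02% and 1.47% in replicate 2.

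**Figure D3:**
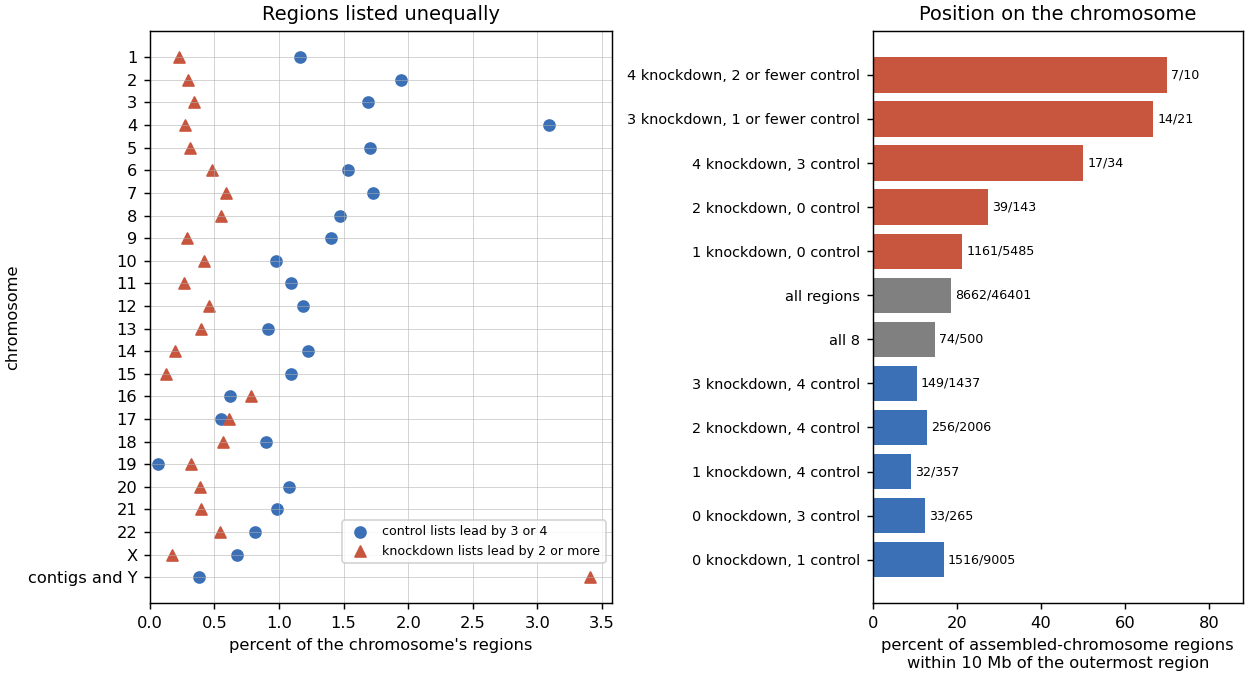
Left, percent of each chromosome's regions that control lists lead by 3 or 4 (blue circles) or knockdown lists lead by 2 or more (red triangles), so the leads differ; the last row pools contigs and chromosome Y. Right, percent of regions on chromosomes 1 to 22 and X that lie within 10 Mb of the outermost region, by class, with counts at the bars (red, knockdown-leaning; grey, all regions and regions in all lists; blue, control-leaning). Chromosome 4 has the highest control-leaning share, 3.09%, and chromosome 19 the lowest of the assembled chromosomes, 0.0631%; the classes shown in red have 21.2% to 70% of their regions near the ends, and all regions have 18.7%.

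At the 542 regions that every list held, peaks of both arms could be ranked. The authors' −log10 q of a peak was turned into its percentile within its own list. The median percentile over these regions was 98.0 and 96.9 in the untreated libraries (replicates 1 and 2), 97.8 and 91.1 in siControl, 97.9 and 82.4 in siMena11a and 96.3 and 48.9 in siMena. The arms overlapped, with both replicate 1 knockdown libraries inside the range of the controls and both replicate 2 knockdown libraries below it. Means were 81.4 ± 22.7 (SD, n = 4) in the knockdown and 96.0 ± 3.25 in the control arm. The difference of -14.6 had a two-sided exact permutation p of 0.229, and of 0.111 within replicate numbers. It was -0.841 within replicate 1 and -28.4 within replicate 2. These percentiles move with list length, since the 542 regions are 54.4% of the regions of siMena replicate 2 and 1.56% of those of siMena11a replicate 1.

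By region, 468 of the 542 (86.3%) had a lower mean percentile in the knockdown arm. In 8 regions (1.48 percent) all knockdown libraries lay below all controls, with an exact permutation p of 0.0286, and in 0 (0 percent) the reverse held at that p. The smallest adjusted p was 0.606, so no region passed. Leaving out a library can change which regions all remaining lists hold. Without siMena11a replicate 1 the count of 8 was 52 of 542 regions. It was 30 of 1938 without siMena replicate 2 and 15 of 548 without siMena replicate 1. The count of 0 was 5 of 549 without siControl replicate 2. With 1 control library left out the count of 8 was 0, although the separation of the arms at these regions holds by construction. The smallest exact permutation p of any region was then 0.0571 without untreated replicate 1, untreated replicate 2 or siControl replicate 1. Within replicate numbers the smallest exact permutation p was 0.0556, and 98 lower and 3 higher of the 542 regions reached it. These percentiles move with list length, and the median difference by region was -0.385 within replicate 1 and -26.2 within replicate 2. By rank among the 542 regions themselves, described below, 33 lower and 27 higher regions reached that p. The 8 regions lay on chromosomes 1, 3, 4, 5, 7, 9, 12 and 16. On chromosome 4, from 174291782 to 174292454, the percentile was 96.1 and 97.1 in untreated, 96.9 and 93.1 in siControl, 91.0 and 61.0 in siMena11a and 45.5 and 15.7 in siMena libraries. On chromosome 16, from 76710013 to 76710792, it was 99.2, 99.8, 99.7 and 99.1 in the controls and 98.5, 89.2, 98.5 and 70.1 in the knockdowns, in the same order. Both regions were thus lower in every knockdown than in every control library, by a wide margin on chromosome 4 and by a narrow one in replicate 1 on chromosome 16.

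Ranking the 542 regions among themselves removes the direct dependence of the percentile on list length. The shortest list still bears on which regions enter: of the 1484 regions held by 7 lists, siMena replicate 2 lacked 1397. Every library then has the same mean rank by construction, so this rank shows which regions stand higher or lower relative to the others and says nothing of an overall lean. By this rank, from 0 to 100, 299 regions (55.2%) were lower and 243 higher in the knockdown arm on average, with a median difference of -2.26. Within replicate 1 the median difference was 0 and within replicate 2 it was -3.41. At an exact permutation p of 0.0286, 13 regions (2.4 percent) were lower and 4 (0.738 percent) higher, and the smallest adjusted p was 0.753. The direction was the same within both replicate numbers, with no overlap of the arms in either, for 33 lower (6.09%) and 27 higher (4.98%) regions. limma on the logit of this rank called 0 regions at an adjusted p of 0.05, with 5 higher and 14 lower at an unadjusted p under 0.05, and 0 with the replicate block.

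The largest lower difference in rank was at a region of 1022 bp on chromosome 12 from 38450373 to 38451394. Its rank was 28.2 and 66.9 in untreated, 52.7 and 68.0 in siControl, 15.2 and 20.7 in siMena11a and 6.73 and 16.9 in siMena libraries. The arms did not overlap, at 14.9 ± 5.89 against 53.9 ± 18.5 (SD, n = 4, exact permutation p = 0.0286, 0.0556 within replicate numbers). Its fold was 11.4, 10.4, 11.0 and 7.45 in the controls and 8.37, 4.72, 5.97 and 3.89 in the knockdowns. On chromosome 2, the region from 153057042 to 153057574 ranked at 66.7, 72.2, 48.4 and 58.9 in the controls and at 25.9, 47.0, 31.1 and 9.13 in the knockdowns (exact permutation p = 0.0286). The region on chromosome 4 from 166248384 to 166249176 ranked near the top in all controls, at 89.2, 93.6, 96.0 and 88.8, and at 75.4, 64.1, 84.0 and 19.4 in the knockdowns. The region from 174291782 on chromosome 4, named above, ranked at 46.4 ± 9.94 in the controls and 15.3 ± 9.17 in the knockdowns. A region on chromosome 16 (72698439 to 72699328) and one on chromosome 5 (145582629 to 145583482) differed by -30.6 each, and their arms overlapped over all 8 libraries (exact permutation p = 0.171 and 0.0857).

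Among the higher ranks, the 6 largest differences that held in both replicate numbers had no exact permutation p below 0.0571. These regions were likewise chosen by their ranks. On chromosome 1, from 5910258 to 5910506, the rank was 39.8, 35.9, 24.8 and 42.9 in the controls and 41.7, 66.5, 71.3 and 82.4 in the knockdowns (p = 0.0571 by exact permutation). Only siMena11a replicate 1 overlapped the controls there. On chromosome 12, from 114501615 to 114502210, the rank was 11.3, 2.12, 2.68 and 50.3 in the controls and 14.3, 90.9, 18.4 and 92.5 in the knockdowns, so siControl replicate 2 exceeded both replicate 1 knockdown libraries. The same held on chromosome 5 (3659962 to 3660448) and chromosome 10 (134177780 to 134178425), with differences of 34.5 and 35.4. The other 2 were on chromosome 12 (133841459 to 133841975) and chromosome Y (59362798 to 59363488), both the outermost region of their chromosome, with differences of 31.6 and 38.8. There too siControl replicate 2, at 89.9 and 94.0, exceeded both replicate 1 knockdown libraries. The 4 regions that were higher at an exact permutation p of 0.0286 were others, on chromosome 7 (21985033 to 21986176 and 32767581 to 32768999), chromosome 5 (33440455 to 33441541) and chromosome 10 (103124514 to 103124841). Of these, the region on chromosome 10 ranked at 84.1 ± 4.19 in the knockdowns and 56.8 ± 20.1 in the controls.

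**Figure D4:**
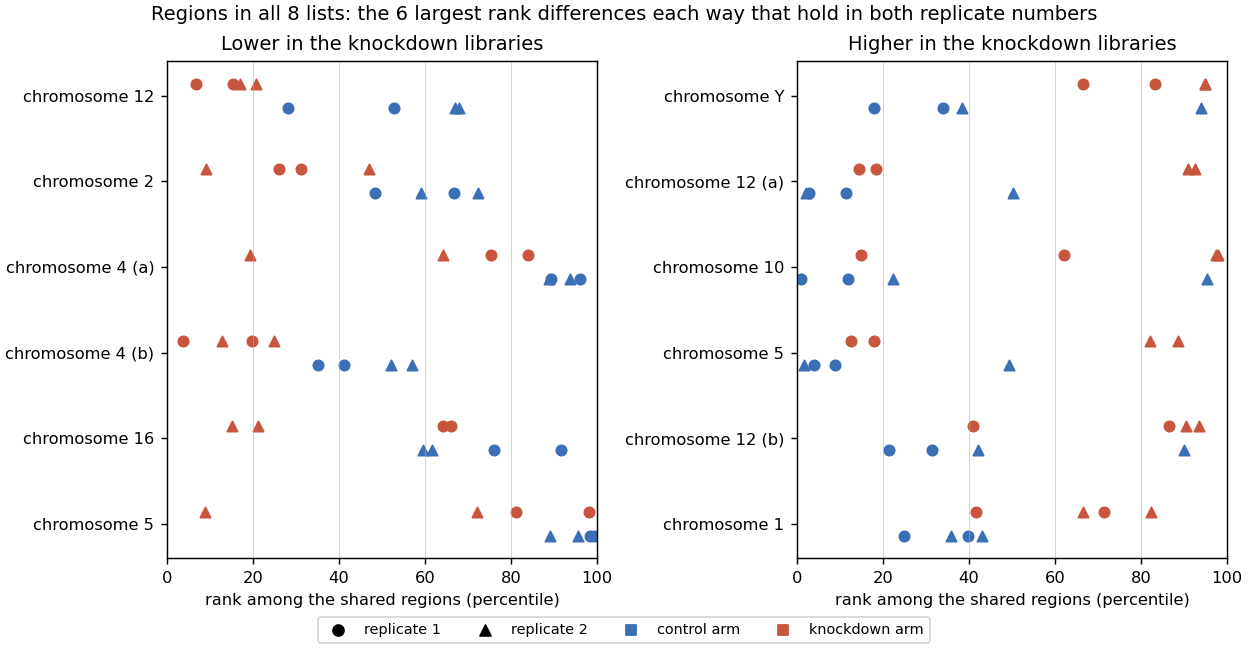
Rank among the 542 regions held by all 8 lists (0 lowest, 100 highest −log10 q) for the 6 regions most lower (left) and most higher (right) in the knockdown libraries among those with the same direction in both replicate numbers. Each point is 1 library, red for knockdowns and blue for controls, circles for replicate 1 and triangles for replicate 2. On the left the arms are apart over all libraries in the first 4 regions; on the right siControl replicate 2 lies within 5 rank units of a replicate 2 knockdown library in 3 of the 6 regions, for example at 95.3 against 97.9 and 97.3 on chromosome 10.

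The regions with no difference in rank show the spread between libraries of one arm. On chromosome 5, the region from 108084030 to 108085165 ranked at 84.8 ± 13.1 in the knockdowns and 84.7 ± 13.6 in the controls. The region on chromosome 12 from 96613154 to 96613991 ranked at 54.1 ± 34.4 and 53.9 ± 10.3, with 4.89 in siMena11a replicate 2 and 84.6 in siMena11a replicate 1. On chromosome 12, the region from 133484735 to 133485643 ranked at 24.9 ± 19.2 and 24.8 ± 19.3.

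Regions of lower and of higher rank differed in other respects. The 33 lower regions lay on assembled chromosomes without exception, whereas 7 of the 27 higher regions were on contigs or chromosome Y. Of those on chromosomes 1 to 22 and X, 3 of 33 lower and 6 of 20 higher regions lay within 10 Mb of the outermost region. Median width was 918 bp for the lower and 761 bp for the higher regions. Of all 542 shared regions, 42 (7.75%) were on contigs or chromosome Y, and median width was 939 bp. Of the 500 on chromosomes 1 to 22 and X, 74 (14.8%) lay within 10 Mb of the outermost region. The median fold in siControl replicate 2 was 7.76 at the lower and 6.04 at the higher regions, against 5.26 and 5.82 in siMena11a replicate 2 and 4.27 and 5.10 in siMena replicate 2. These are descriptions of regions chosen by their rank and carry no test.

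The order of the 542 regions was alike among replicate 1 libraries and untreated replicate 2, and among the other 3 replicate 2 libraries, across the arms. As a description over 542 regions, the correlation of ranks was 0.84 between siMena11a replicate 1 and untreated replicate 1 and 0.74 between siMena11a and siMena replicate 1. It was 0.72 between siControl and siMena11a replicate 2, 0.65 between siMena11a and siMena replicate 2, and 0.14 between the 2 siMena11a replicates. Untreated replicate 2 correlated at 0.69 to 0.77 with the replicate 1 libraries but at 0.37, 0.23 and -0.0039 with siControl, siMena11a and siMena replicate 2, so within replicate 2 it stands apart from the other 3 libraries. siMena replicate 2 correlated at -0.10 to 0.17 with the replicate 1 libraries.

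Lists of equal length gave another set of split regions. In them 3 regions were in all knockdown and no control list, and 4 the reverse, and none of the 7 was split in the full lists. The 3 knockdown-only regions were 144931593 to 144932848 of chromosome 1, 86748325 to 86749296 of chromosome 11 and 23338395 to 23339129 of chromosome 20, and all 4 full control lists held each of them. On chromosome 11 the fold was 10.1, 8.30, 9.64 and 5.11 in the controls and 11.8, 4.81, 8.64 and 3.60 in the knockdowns, so the arms overlapped. The 4 control-only regions were 85173251 to 85174079 of chromosome 2, 50652500 to 50653205 of chromosome 7, 15422367 to 15423309 of chromosome 9 and 98987100 to 98987641 of chromosome 12, and 3 full knockdown lists held each of them. On chromosome 12 the fold was 13.2, 10.8, 10.8 and 6.14 in the controls and 11.2, 5.15 and 5.51 in siMena11a replicates 1 and 2 and siMena replicate 1. These 7 regions were chosen after their values were seen.

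The number of peaks itself did not differ between the arms beyond the spread between libraries. It averaged 13500.5 ± 15850.5 (SD, n = 4) in the knockdown and 22435 ± 12545 in the control arm. On the log2 scale the difference was -1.55 (two-sided exact permutation p = 0.257, and 0.167 within replicate numbers), with -0.43 within replicate 1 and -2.67 within replicate 2. The genome-wide background differed by 0.48 on the log2 scale, higher in the knockdown arm (p = 0.514, exact permutation). The median fold at the 542 regions was 7.43 ± 2.81 in the knockdown and 9.65 ± 2.09 in the control arm (p = 0.229, exact permutation). Adjusted over the 5 values compared by library, the exact permutation p for log2 peak number, percentile and fold was 0.429.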

How the data were processed

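ATAC-seq peak lists of 8 H1650 libraries were used, 1 per library and not pooled. The submitters' processing notes name MACS2 2.2.5, SAMtools 1.7, FastQC 0.11.5 and Bowtie2 2.3.4.2, with hg19 as the genome build. Trimming, duplicate removal and transposase shift are not given in the sources used here. The deposited score, fold (a ratio: tags at the summit plus 1, over the local expectation plus 1), −log10 p and −log10 q are the authors' values. Score and fold describe peaks, and folds set side by side between libraries are descriptions. The lists give no read totals. Pileup and background were recovered from the deposited fold and −log10 p with the Poisson formula, within 0.001 for 100% of rows.

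Distinct intervals were merged where they overlapped or touched, and a list held a region if it had a peak there. The highest −log10 q of a list in a region was used. Exact permutation tests (two-sided, all divisions of 4 against 4 libraries, Benjamini-Hochberg adjusted) were checked on simulated data. The members, classes and tests were chosen with earlier results of these data known. Regions were named by rule: all complete splits, the 5 with the highest lowest percentile per direction among splits of 4 to 1 and 3 to 0, the 6 largest rank differences per direction with separate arms in both replicate numbers, and the 3 smallest. The replicate numbers were taken to pair the libraries, which the labels do not state. Deviations from group means correlated across the 542 shared regions only weakly with untreated (0.10 to 0.25) and more among the other groups (0.64 to 0.74). By rank, untreated replicate 2 was closer to the replicate 1 libraries than to the other replicate 2 libraries. The p-values within replicate numbers therefore rest on an assumed pairing. Share of peaks near transcription starts, gene lists and sequences were not analysed here. Software was R 4.3.3 with limma 3.58.1, and Python 3.11.15 with SciPy 1.17.1, pandas 2.3.3, numpy 2.4.6 and matplotlib 3.10.9.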

Additional observations from a re-analysis of the deposited data

Results flagged for a closer look

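Of 38 sets of 4 libraries of an arm that were screened for a library apart from the others, 2 held such a library. The nominal rate of the screen is 1 in 20. Both regions had been named for their rank differences, and each set pools 2 groups, so that rate need not hold here. At the region on chromosome 12 from 133841459, siMena11a replicate 1 ranked at 40.9, below the other 3 knockdown libraries (86.4 to 93.5). At the region on chromosome 5 from 3659962, siControl replicate 2 ranked at 49.4, above the other 3 control libraries (1.57 to 8.76).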

How the results depend on the processing

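The median percentile and peak number differences kept their sign under every alternative run and passed no exact permutation test. Leaving out 1 library in turn gave -20.1 to -9.53 for the percentile and -2.39 to -0.68 for log2 peak number. It gave 0 to 5 knockdown-only and 5 to 360 control-only regions. Higher percentiles numbered 0 to 5 and lower ones 0 to 52 (52 of 542 regions without siMena11a replicate 1, 30 of 1938 without siMena replicate 2). From 65.3% to 95.5% of regions were in a larger share of the control than of the knockdown lists. That share, whose alternatives were all chosen after seeing the data, was 39.5% within replicate 1, 44.4% with siControl alone and 39.0% in lists of equal length. Knockdown-only regions numbered 3 in lists of equal length, 138 within replicate 1, 36 within replicate 2 and 9 against untreated alone (also chosen after seeing the data). Control-only regions numbered 8 at a −log10 q of at least 5 and 8 with peaks covering 50% of the region. In bins of 500 bp, 17 of 88738 bins were control-only. Against siControl alone the count of regions was 19, within replicates 1 and 2 it was 1276 and 2423, and against untreated alone 706. Within 1 replicate number a split needs 2 lists against 2, and against 1 control group 4 against 2. These counts, in both directions, thus follow looser rules than the 4 against 4 of the main result. For percentiles, ranks among shared regions gave 4 higher and 13 lower regions and fold in place of −log10 q gave 1 and 19. With the replicate block, which allows no p below 0.0556, lower regions numbered 0, and limma gave 0 lower without and 0 with the block (24 higher and 29 lower unadjusted with it). The block leaves the listing counts and the differences in median percentile and peak number unchanged by construction. As it allows no p under 0.05, it is no check of these results. The rank alternative has the same median in every library by construction, so its difference of -0.15 says nothing of the arms. Counts by region for siControl alone and within 1 replicate number allow no p under 0.05 and were not run, nor was the share near transcription starts. A region missing from a list is not shown to be closed there, as the threshold in tags differed between libraries.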

Other observations

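Contigs outside chromosomes 1 to 22 and X, together with chromosome Y, held 12.8% of the peaks of siMena replicate 2, 4.34% of siMena11a replicate 2 and 2.54% of siControl replicate 2, against 0.377% to 0.634% in the other 5 libraries. Among the 1020 strongest peaks of each list the shares were 12.8%, 8.04% and 5.29%, against 0.196% to 1.08%. Chromosome X held 0.392% of the peaks of siMena replicate 2, 0.812% of siMena11a replicate 2 and 1.45% of siControl replicate 2, and 2.27% to 2.67% in the other 5. Of the 997 regions of siMena replicate 2, 589 (59.1%) were in all 4 control lists and 109 (10.9%) in none.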
